A study of Mus musculus with 2 samples.

Results

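Collagens are the triple-helical proteins that give extracellular matrix its fibers, sheets and filaments, and 43 of their genes were measured here by single-cell RNA sequencing of mouse embryonic tissue labelled as brain. The members were all genes with a symbol made of Col, a type number, the letter a and a chain number, with at least 20 unique molecular identifiers (UMIs, each 1 captured mRNA molecule) over both libraries. Of 44 matching symbols, 43 passed, out of 32285 genes listed and 20354 genes with at least 20 UMIs. Col6a5, with 18 UMIs, was the symbol left out, and Col6a4, with 24 UMIs, lay just inside the limit. The choice used no difference between groups.

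The study set a library of embryos with a neural tube defect (NTD) beside a control library, 1 of each. Dams of the NTD group ate a diet low in folate and were given methotrexate (MTX), a folate antagonist, into the peritoneum at 1.5 mg/kg on gestational day 7.5. These embryos were small and delayed, with hindbrain malformation and spina bifida. The control library came from embryos with closed tubes, and its treatment label is normal saline. Closure was scored between embryonic days 9.5 and 10.5, but the stage at which each library was made, the strain, the sexes and the number of embryos pooled do not appear in the labels. With 1 library a group there is no spread over samples, so no test was run and every interval below is a 95% counting interval that covers sampling of molecules only. A difference described below is a difference between these libraries, and diet, drug, delay and dissection cannot be told apart.

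Each collagen molecule is a trimer of chains that coil around each other in the endoplasmic reticulum after proline and lysine hydroxylation, and is then exported, trimmed and crosslinked. Fibrillar collagens (types I, III and V among them) make the tensile fibers of mesenchyme, types II, IX and XI make those of cartilage, type IV chains form the sheet of every basement membrane, and types XV and XVIII bind to that membrane. The remaining types sit on fibril surfaces, form beaded filaments or hexagonal networks, or span the plasma membrane. In the early embryo the neuroepithelium, surface ectoderm and vessels each rest on a basement membrane, and the head mesenchyme between them fills with fibrillar collagen.

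Members of 1 trimer can share a promoter region, and the 6 type IV genes lie head to head as 3 pairs in the genome annotation. In the mouse build GRCm38, Col4a1 (chromosome 8, 11198423 to 11312826, minus strand) and Col4a2 (11312805 to 11449287, plus strand) overlap at their starts, with start sites 21 bases apart, Col4a4 and Col4a3 start 72 bases apart on chromosome 1, and Col4a6 (chromosome X, 141165403 to 141474076, minus strand) and Col4a5 (141475385 to 141689234, plus strand) start 1309 bases apart. The upstream sequences of the last pair are shown because these chains had 1 of the closest pairs of tissue profiles among the collagens. They come from RefSeq (GRCm38.p6) and are written 5′ to 3′ on each gene's own strand. They end at the base before the start site given above (chrX:141475169-141475384 for Col4a5 and chrX:141474077-141474326 for Col4a6). Capitals mark motif matches.
Col4a5: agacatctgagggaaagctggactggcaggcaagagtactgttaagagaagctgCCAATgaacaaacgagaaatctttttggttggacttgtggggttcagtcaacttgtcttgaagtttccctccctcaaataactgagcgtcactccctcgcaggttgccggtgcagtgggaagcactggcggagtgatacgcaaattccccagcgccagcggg
Col4a6: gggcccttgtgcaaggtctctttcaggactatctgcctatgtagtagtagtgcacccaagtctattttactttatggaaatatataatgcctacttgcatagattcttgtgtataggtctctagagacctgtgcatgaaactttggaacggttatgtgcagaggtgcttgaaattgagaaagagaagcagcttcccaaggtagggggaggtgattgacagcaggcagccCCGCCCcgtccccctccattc
The Col4a5 stretch of 216 bases held 1 CCAAT on the shown strand, and the Col4a6 stretch of 250 bases held 1 GGGCGG on the opposite strand, read here as CCGCCC. The RefSeq start of Col4a5 lies further on, at base 141475419, and the 250 bases before it held GGGCGG as well as CCAAT. Over the 250 bases before the start of 37 promoters of 34 members that the RefSeq table held, 21 had GGGCGG, 13 had CCAAT, 5 had TATAAA and 0 had ACAATGG on either strand. Among all 32851 promoters in the table the shares were 32.7%, 33.8%, 12.4% and 3.02%. These are letter matches in a short window and show no binding.

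There were 18572 control barcodes (50741121 UMIs) and 19056 NTD barcodes (55524355 UMIs), and 105 barcodes occurred in both. The lowest UMI count of a barcode was 1027 in control and 1589 in NTD, so the control library held shallower cells than any in NTD. After removal of likely doublets, 15786 control cells and 16198 NTD cells were kept, with medians of 2167 and 2437 UMIs. Cells were clustered without the collagen genes and clusters were named only from marker lists. This gave 12 named classes, written as X-like, and 10 clusters that stayed unnamed and are given by number. Clusters 3, 7, 8, 16 and 27 and the liver or yolk sac-like class came almost wholly from the control library (95.3% to 98.2% of their cells), and the eye-like class had 38 control cells. Levels were read only where a library had at least 50 cells of a tissue. The control library, although labelled brain, held cells led by limb genes (cluster 8: Tbx15, Tbx4 and Tbx5), by visceral genes (cluster 7: Wt1, Gata4 and Gata6) and by liver genes. The summed level of 31 Hox genes of groups 4 to 13, which mark trunk positions, was 721 CPM (UMIs scaled to the UMI total of the same cells) in control and 31.5 in NTD. Within mesenchyme-like cells these Hox genes stood at 182 and 23.9 CPM. The part that body position plays in the differences below was not tested.

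Collagen levels depend on the background of free RNA in droplets. Erythroid-like cells, which should make no collagen, still held 1021 collagen CPM in control and 720 in NTD. Their Col3a1 level was 165 CPM in control and 92.7 in NTD, and their Col1a1 level was 74.8 and 53.7 CPM. A tissue level near these values is therefore read below as background. For Col15a1 the erythroid-like level was 4.40 and 2.44 CPM, so the background differed greatly between members. Levels of different members are not compared as molecule numbers, because 3′ counts depend on where priming occurred and the genes span 7.105 to 468.377 kb. The sources used here do not say whether intronic reads were counted.

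Over all kept cells, collagens were lower in the NTD library. The 43 genes together made 1816 CPM (71803 UMIs) in control and 1029 CPM (46773 UMIs) in the NTD library. The log2 ratio of NTD over control was -0.82 (interval -0.84 to -0.80). By a fold of 1.5, 28 of 43 members were lower and 1 was higher, against 22.1% and 5.28% of the 19789 genes measured. The 1 higher member was Col6a4, at 9 UMIs in control and 15 in NTD. The median log2 ratio was -0.73 over the members and -0.24 over all genes. Because the whole distribution was shifted, TMM scaling, which sets the bulk of genes equal, moved ratios up by 0.25. With it, 20 members were lower and 2 higher, against 13% and 11.8% of all genes.

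Every family was lower over all kept cells, to different degrees. Fibrillar genes summed to 517 CPM in control and 286 in NTD, with 8 of 8 lower by the fold. Cartilage genes summed to 222 and 163 CPM, with 3 of 7 lower. Basement membrane genes summed to 390 and 264 CPM, with 3 of 9 lower. The largest family shifts were in small groups: fibril-associated genes stood at 62.9 and 24.7 CPM (log2 ratio -1.35) and beaded filament genes at 16.7 and 7.40 CPM (-1.17). Transmembrane collagens stood at 412 and 187 CPM (-1.14) and hexagonal network genes at 14.0 and 9.07 CPM (-0.63). Col26a1 and Col28a1 together stood at 182 and 88.1 CPM (-1.04). The lowest ratios among members of at least 20 CPM were those of Col1a1 (87.3 and 31.0 CPM, -1.49), Col25a1 (169 and 63.3 CPM, -1.41) and Col27a1 (33.2 and 15.7 CPM, -1.08). Nearest to even were Col2a1 (-0.14), Col4a2 (69.1 and 50.7 CPM, -0.45) and Col9a1 (31.7 and 22.2 CPM, -0.51). Col23a1, at 225 and 112 CPM, Col26a1, at 180 and 86.8 CPM, Col3a1, at 177 and 112 CPM, and Col18a1, at 112 and 76.1 CPM, had large UMI counts in both libraries.

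The libraries also differed in which tissues they held, and the part of this in the difference was not tested. In the control library cluster 4 held 19.2% of collagen UMIs, cluster 8 held 13.9% and cluster 7 held 13%. In the NTD library mesenchyme-like cells held 31.9% of collagen UMIs with 17.6% of all UMIs, and neural progenitor-like cells held 22.4% with 31.6% of all UMIs. As arithmetic, control levels at NTD tissue shares would give 1461 CPM (log2 ratio -0.31 to the control), and NTD levels at control shares would give 1490 CPM (-0.29). Tissues with under 50 NTD cells held 24.0% of control UMIs and were kept at their control level in the second sum. The eye-like class, with under 50 control cells, was kept at its NTD level in the first sum. Each tissue is therefore described on its own.

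**Figure D1:**
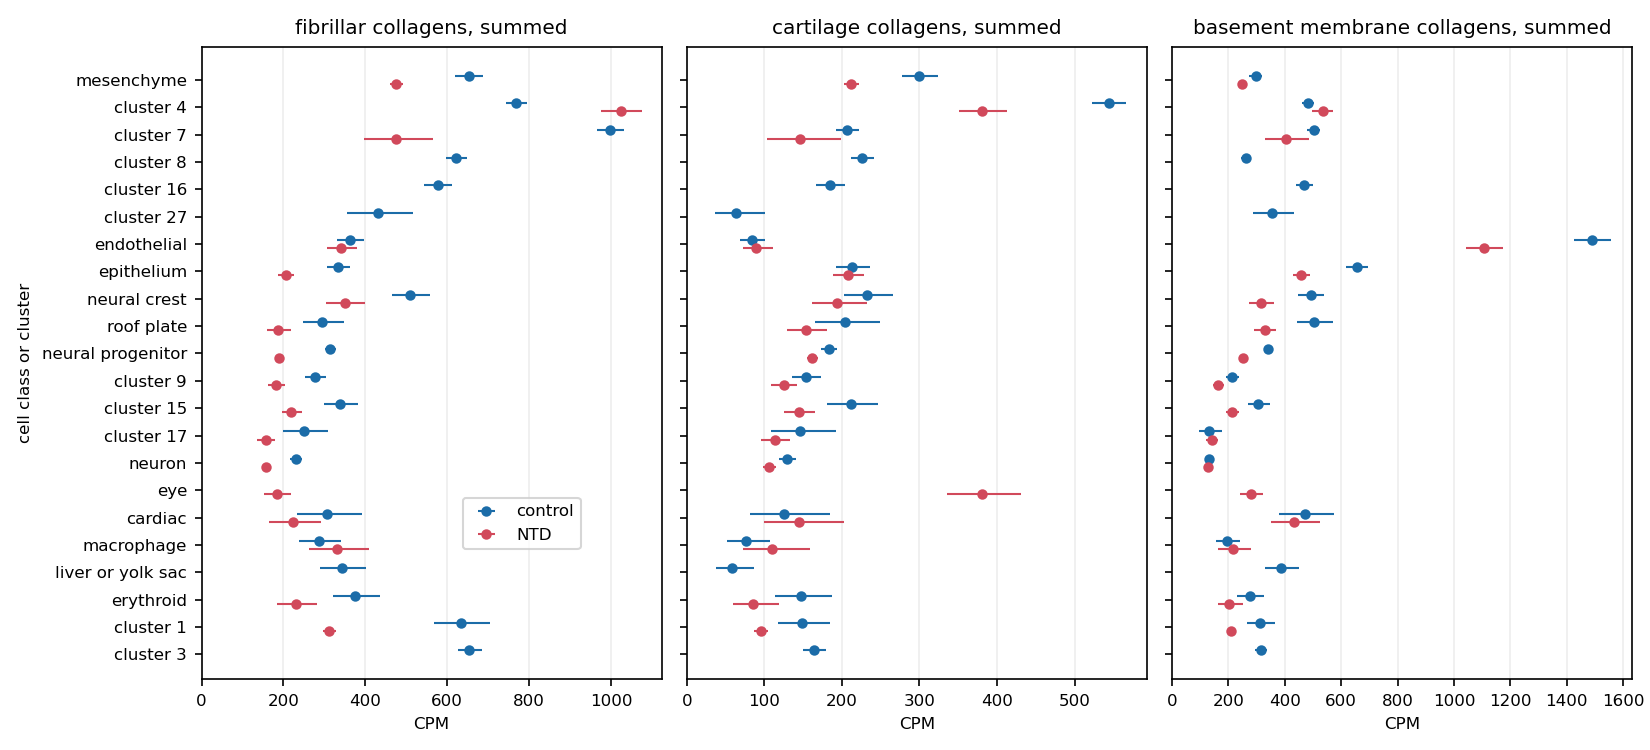
Summed level of fibrillar, cartilage and basement membrane collagens (CPM, 1 panel a family) in each tissue, with 95% counting intervals, for the control library (blue) and the NTD library (red). Fibrillar genes reached 1025 CPM in cluster 4 of the NTD library, and basement membrane genes reached 1491 CPM in control endothelial-like cells.

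Mesenchyme-like cells, 852 control and 2745 NTD cells of cluster 0, are the embryonic connective tissue that lays down fibrillar matrix. Their collagens summed to 2687 CPM in control and 1867 in NTD, a log2 ratio of -0.52 (-0.57 to -0.48). By the 1.5-fold limit 14 of 35 measured members were lower and 1 was higher, against 12.5% and 6.49% of 14156 genes. TMM scaling left 5 lower and 1 higher, against 6.34% and 11.9% of genes, so 9 of the 14 lay within 0.19 of the limit. The median was -0.46 for the members and -0.17 for all genes. The 10 mesenchyme markers, all detected in both libraries, summed to 1672 CPM in control and 1265 in NTD, and their part in the result was not tested. The class itself depended on the doublet step: with likely doublets kept, the summed ratio was -0.22, and Col3a1, Col1a2 and Col26a1 turned to ratios of 0.13, 0.12 and 0.11.

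Cluster 4, with 1499 control and 369 NTD cells, was led by Lamc3, Colec12, Bmp5 and Pax9 and expressed 7 mesenchyme markers, including Twist1, Prrx1 and Pdgfra, but a marker of another class stood among its leading genes and it stayed unnamed. Here the summed collagen level hardly differed, 3214 CPM in control and 3160 in NTD (log2 ratio -0.02, -0.07 to 0.02). The members diverged instead: 11 of 32 were lower and 6 higher, against 15.3% and 8.28% of 13191 genes. With TMM scaling the counts were 9 lower and 8 higher, against 12.1% and 11.1%. Fibrillar genes were higher in NTD, 769 against 1025 CPM (0.41, 0.33 to 0.50), and cartilage genes were lower, 544 against 381 CPM (-0.51). The 9 sclerotome markers in the files summed to 341 CPM in control and 118 in NTD, with Nkx3-2 at 0 in NTD, and the 10 cartilage markers summed to 1075 and 611 CPM, with Snorc at 0 in both and Matn1 at 0 in NTD. Hox genes of groups 4 to 13 summed to 757 CPM in control and 37.4 in NTD cells of this cluster. The part of those cell types and of body position in the difference was not tested.

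**Figure D2:**
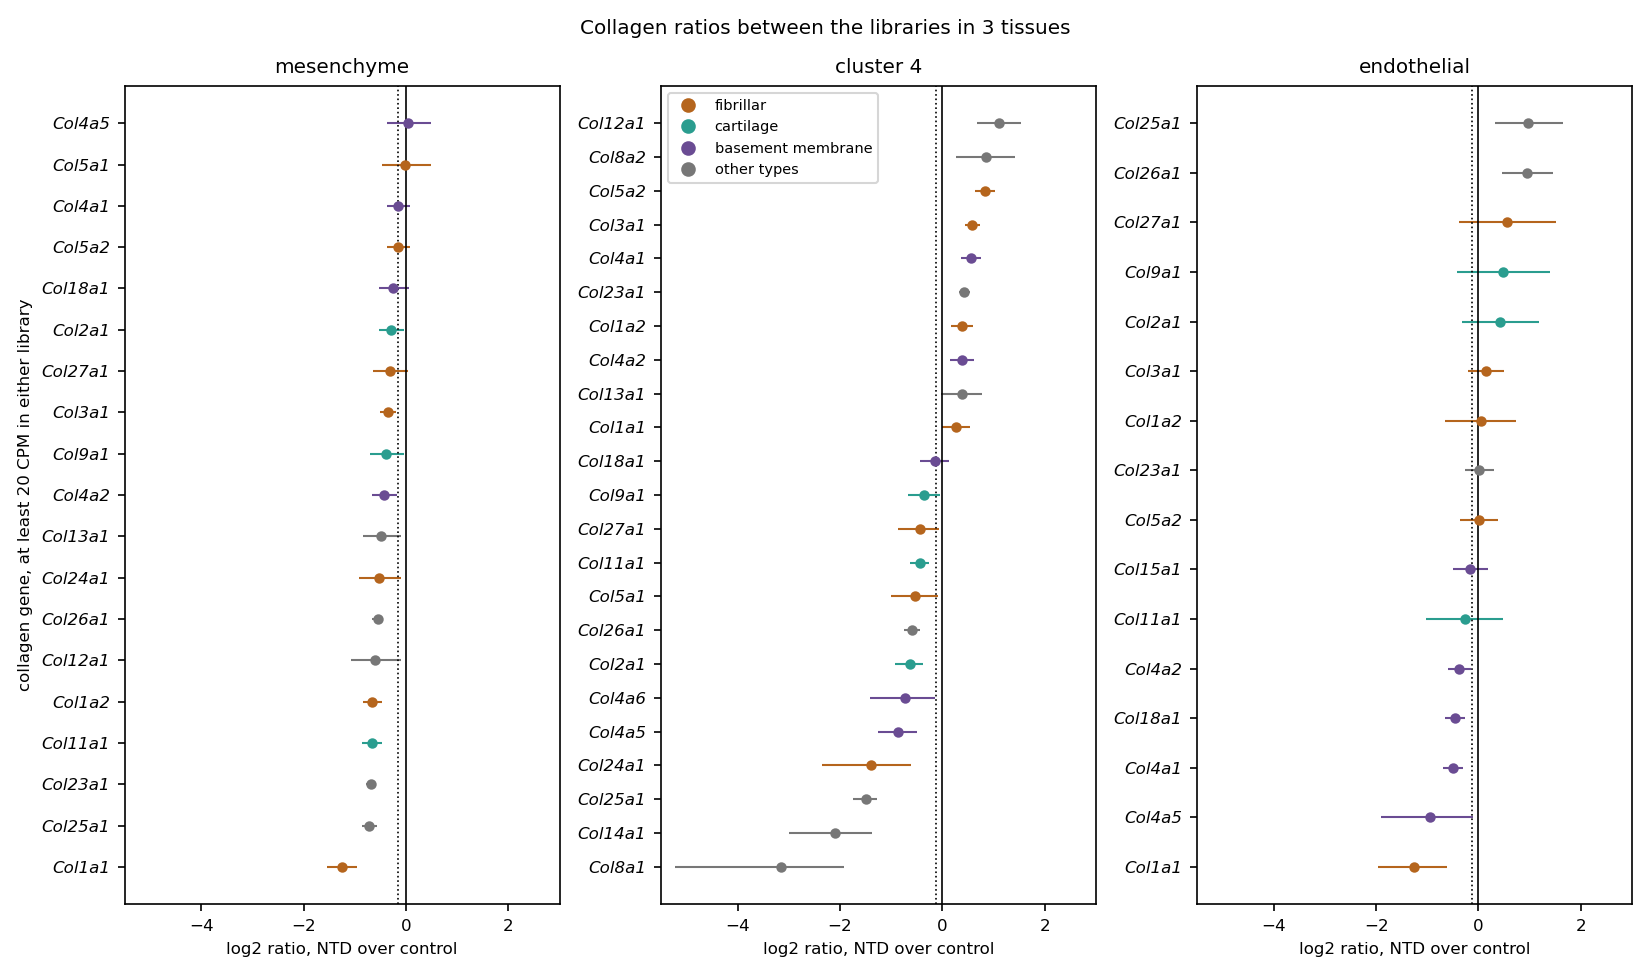
Log2 ratio of NTD over control for members of at least 20 CPM in either library, in mesenchyme-like cells, cluster 4 and endothelial-like cells, with 95% counting intervals; the dotted line is the median of all genes in that tissue. In cluster 4 the members run from -3.15 for Col8a1 to 1.11 for Col12a1.

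Type I collagen, made of Col1a1 and Col1a2 chains, is the main fiber of skin, bone and tendon. Col1a1 stood at 74.6 CPM (161 UMIs) in control mesenchyme-like cells and 31.2 CPM (249 UMIs) in NTD ones, a log2 ratio of -1.26 (-1.55 to -0.96). Both levels were at or below the erythroid-like level of the same library. Its partner Col1a2 was above background in this class, at 163 CPM in control and 104 in NTD (-0.66). In cluster 4 neither chain was lower in NTD: Col1a1 was at 89.4 and 108 CPM (0.28, 0.00 to 0.54) and Col1a2 at 140 and 183 CPM (0.39).

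Col1a1 was lower in NTD in 14 of 15 tissues, in 13 of them by the 1.5-fold limit and in 13 with an interval below 0. Cluster 4 was the exception. In 9 of the tissues (mesenchyme-, progenitor-, neuron-, epithelium-, endothelial- and roof plate-like cells and clusters 9, 15 and 17) both levels were at or under those of erythroid-like cells, which are also among the 15, so most of this count is of levels read as background. Its control levels were highest in cluster 7 at 177 CPM, where NTD had 59.8 CPM, and in clusters 1 and 3 at 173 and 174 CPM. Cluster 1 (56.4 CPM in NTD) was led by histone genes, and cluster 3, led by Apoa2, Afp and H19, had cells of low UMI count. The median was 1130 UMIs in control cells of cluster 3 and 1106.5 in those of cluster 1. Both lie under 1589, the lowest UMI count of any NTD barcode.

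The UMI ratio of Col1a1 to Col1a2 also differed. Over all kept cells it was 0.957 (0.913 to 1.00) in control and 0.639 (0.597 to 0.683) in NTD. In mesenchyme-like cells it was 0.457 and 0.301, and in cluster 4 it was 0.639 and 0.592 with overlapping intervals. Among neural progenitor-like cells, which express little of either, it was 1.41 in control and 0.948 in NTD. The annotated gene of Col1a1 spans 16.819 kb and that of Col1a2 36.731 kb.

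Col3a1 forms type III collagen, the fiber of vessels, skin and loose mesenchyme. Mesenchyme-like cells held 213 CPM in control and 167 in NTD (-0.35, -0.50 to -0.19). Cluster 4 showed the opposite order, with 268 CPM in control and 403 in NTD (0.59, 0.44 to 0.73). The NTD level in cluster 4 was more than that of any other NTD tissue, the next being 187 CPM in cluster 7. Control levels were less spread, with 293 CPM in cluster 3, 264 CPM in cluster 1 and 260 CPM in cluster 7.

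The type V chains Col5a1 and Col5a2 join type I fibrils and set their width. Col5a2 stood at 102 CPM in control and 91.7 in NTD mesenchyme-like cells (-0.16). In cluster 4 Col5a2 was at 137 CPM in control and 245 in NTD (0.84, 0.64 to 1.02). The reverse order held in cluster 7, with 241 CPM in control and 97.2 in NTD. Crest-like cells held 138 and 160 CPM of Col5a2.
Col5a1 did not follow its partner in cluster 4: it was at 47.6 CPM in control and 32.8 in NTD. The Col5a1 to Col5a2 UMI ratio there was 0.347 (0.294 to 0.408) in control and 0.134 (0.0982 to 0.180) in NTD, while in mesenchyme-like cells it was 0.223 and 0.247. Col5a1 in mesenchyme-like cells was at 22.7 CPM in both libraries. Col5a3, a further type V chain, had 1.16 CPM over control cells and 0.616 CPM over NTD cells, with its top level, 6.26 CPM, in control roof plate-like cells.

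Col24a1 and Col27a1 encode fibrillar collagens of developing bone and cartilage. Col24a1 stood at 32.9 CPM in control and 22.9 in NTD mesenchyme-like cells (-0.53), and at 24.3 and 9.02 CPM in cluster 4 (-1.39). It was lower in NTD in 5 of 5 tissues measured, 4 of them by the fold. Col27a1 was at 44.0 and 35.5 CPM in mesenchyme-like cells and at 59.8 and 43.8 CPM in cluster 4. Its control level in cluster 27, a small cluster of 79 control cells led by the muscle genes Myom3, Mypn and Myl1, was 96.6 CPM.

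**Figure D3:**
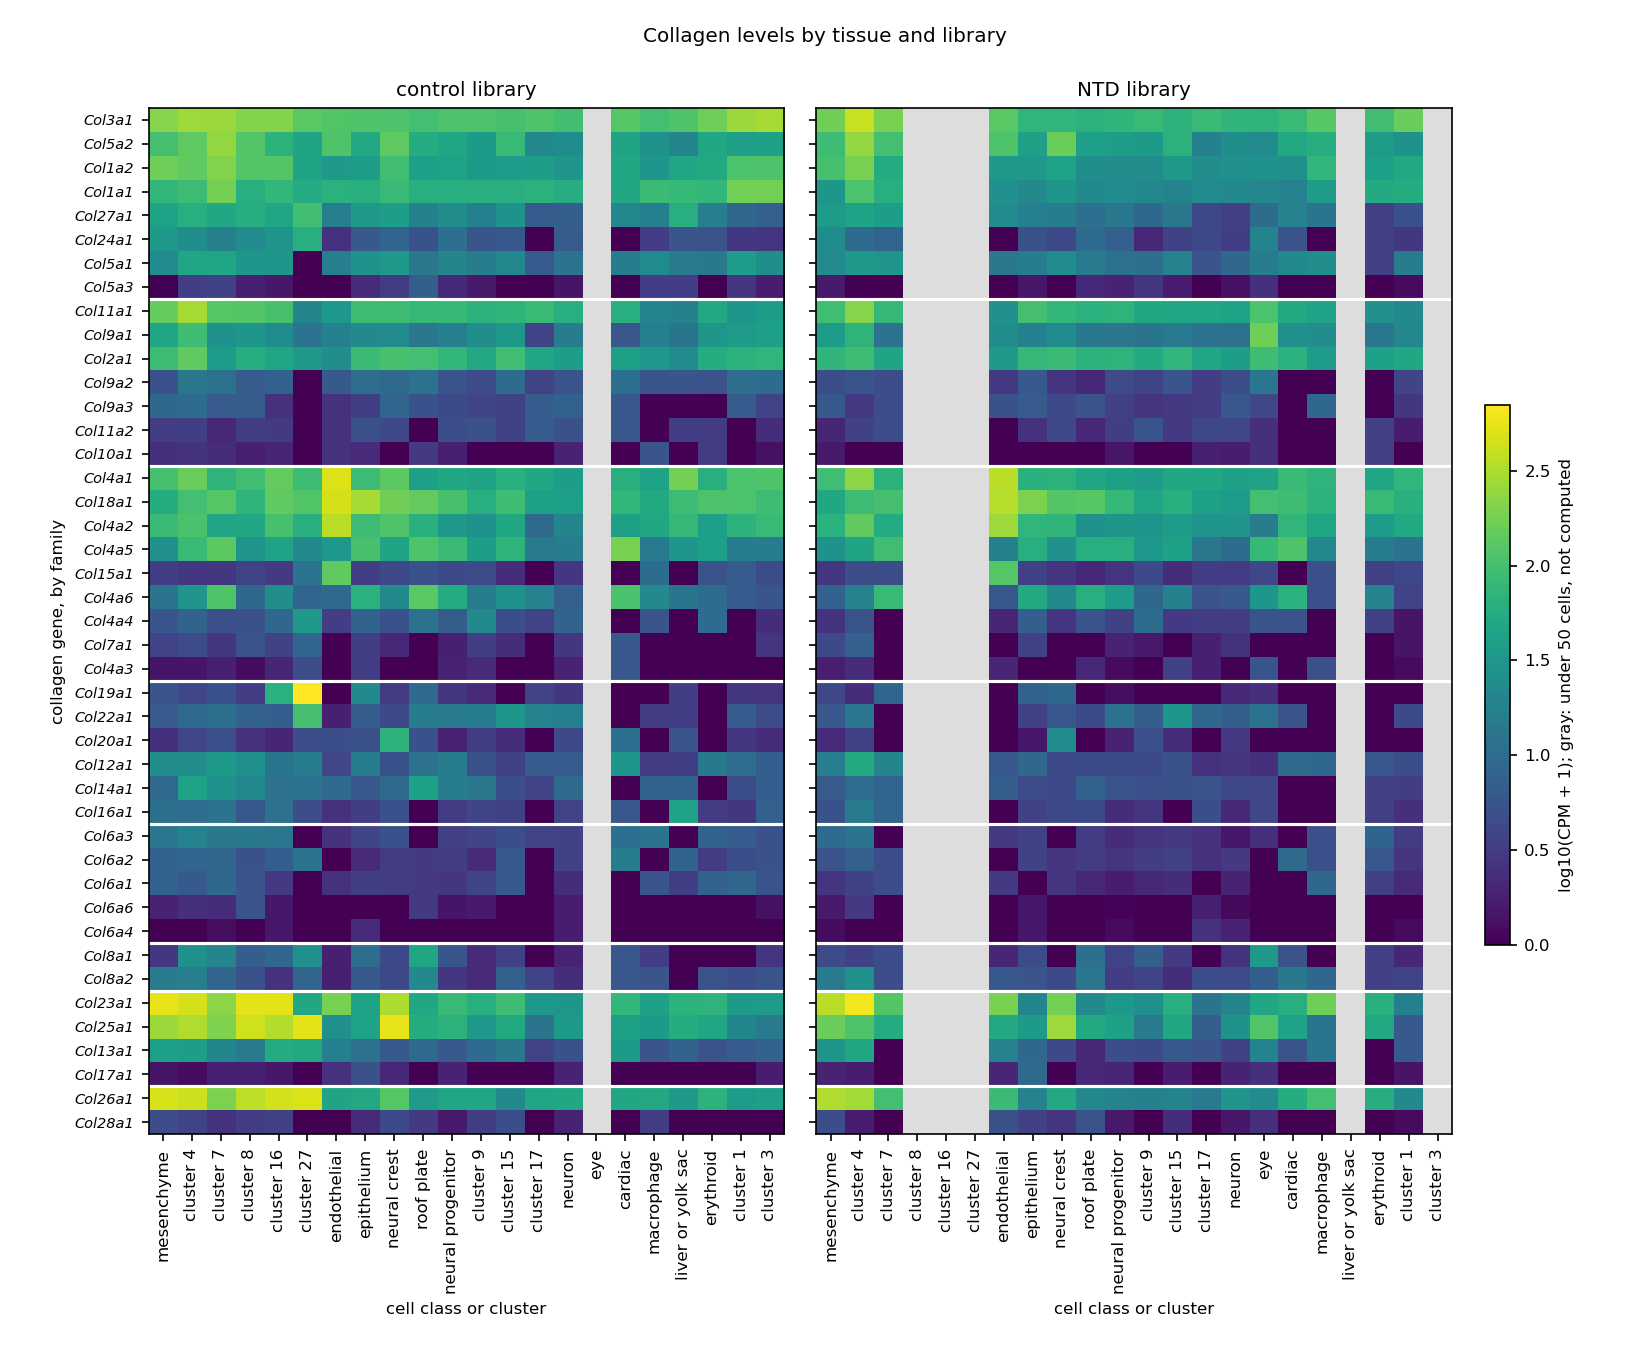
Level of each of the 43 collagen genes, as log10(CPM + 1), in every tissue of the control and the NTD library; gray marks tissues with under 50 cells in that library. Col4a1, Col4a2 and Col18a1 have their top level in the endothelial-like columns, Col15a1 stays at or under 11.1 CPM in every other, and Col19a1 is highest in cluster 27 (702 CPM), followed by cluster 16 (64.4 CPM).

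Among the cartilage collagens, Col2a1 encodes the type II chain, the main fiber of cartilage, notochord and vitreous. Mesenchyme-like cells held 87.6 CPM in control and 71.7 in NTD (-0.29), and cluster 4 held 141 and 90.2 CPM (-0.64). Over all 16 tissues with a ratio, these included, Col2a1 was lower in 9, with a median log2 ratio of -0.14 and a range from -0.64 in cluster 4 to 0.67 in cardiac muscle-like cells, where few UMIs were counted. In neural progenitor-like cells it was at 76.4 and 70.0 CPM (-0.13, -0.28 to 0.03). NTD eye-like cells held 90.4 CPM. Over all kept cells, at 69.4 and 62.9 CPM, its small difference turned to the other side under TMM scaling (0.11).

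Col11a1, the type XI chain that starts type II fibrils, was at 148 CPM in control and 93.1 in NTD mesenchyme-like cells (-0.67). In cluster 4 it was at 287 and 211 CPM (-0.44, -0.62 to -0.27), above every other tissue of the same library. Eye-like cells of the NTD library held 110 CPM. Epithelium-like cells held 88 and 101 CPM, the 1 tissue of 15 in which Col11a1 was not lower in NTD. Col11a2, a partner chain, stayed at 2.66 and 1.98 CPM over all kept cells.

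Type IX collagen decorates type II fibrils and is built from Col9a1, Col9a2 and Col9a3. Col9a1 was at 47.8 and 36.7 CPM in mesenchyme-like cells and at 90.6 and 70.8 CPM in cluster 4. Its top NTD level was 163 CPM, in eye-like cells, where Col9a2 also had its top NTD level of 12.0 CPM. The Col9a1 to Col9a3 UMI ratio was 6.60 in control and 6.69 in NTD over all kept cells, with overlapping intervals (5.66 to 7.73 and 5.63 to 7.99). Over all kept cells Col9a2 stood at 6.98 and 3.59 CPM and Col9a3 at 4.80 and 3.32 CPM. Col10a1, made by hypertrophic cartilage, was at 0.986 and 0.418 CPM, a level with no tissue above 4.61 CPM.

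Type IV collagen is the sheet of all basement membranes, and endothelial-like cells (492 control, 293 NTD) were its richest source in both libraries. Col4a1 was at 498 CPM in control and 353 in NTD (-0.50, -0.69 to -0.31). Col4a2 was at 352 and 271 CPM (-0.37, -0.60 to -0.15). The next tissue of the control library for Col4a1 was the liver or yolk sac-like class at 178 CPM, and that of the NTD library was cluster 4 at 226 CPM. In cluster 4 Col4a1 had 153 CPM in control, so it was higher in NTD there (0.57).
These chains form 1 trimer, and their UMI ratio was 1.43 in control and 1.36 in NTD over all kept cells, and 1.42 and 1.30 in endothelial-like cells, with overlapping intervals in both. In mesenchyme-like cells Col4a1 was at 103 and 93.5 CPM and Col4a2 at 87.2 and 64.8 CPM. Neuron-like cells held 19.1 CPM of Col4a2 in control and 29.1 in NTD (0.61, 0.22 to 1.01). Both levels were below the erythroid-like ones, 39.6 and 36.6 CPM.

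Col4a5 and Col4a6, whose upstream sequences are shown above, make the second type IV trimer of embryonic epithelia and smooth muscle. Their levels were highest in tissues other than vessels. Cardiac muscle-like cells held 180 and 114 CPM of Col4a5 and 105 and 65.5 CPM of Col4a6, from 56 control and 58 NTD cells. Roof plate-like cells, the dorsal midline of the neural tube (169 control, 275 NTD), held 115 and 59.5 CPM of Col4a5 (-0.95, -1.52 to -0.38).
Col4a6 in roof plate-like cells was at 129 CPM in control and 61.7 in NTD (-1.07, -1.62 to -0.52). Cluster 7 held 135 and 93.5 CPM of Col4a5 and 115 and 82.2 CPM of Col4a6. In endothelial-like cells Col4a5 was at 32.3 and 16.5 CPM. Across the libraries the Col4a5 to Col4a6 UMI ratio was 1.69 in control and 1.81 in NTD, but it differed by tissue, with 0.887 and 0.964 in roof plate-like cells, 2.32 and 4.09 in mesenchyme-like cells and 3.82 and 3.20 in endothelial-like cells, the last on 11 and 5 UMIs of Col4a6. Col4a5 was lower in NTD in 14 of 15 tissues, and the exception, mesenchyme-like cells, held 26.9 and 27.7 CPM.

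The third type IV set, Col4a3 and Col4a4, builds adult kidney and lung membranes and was low here. Col4a4 stood at 6.09 and 2.62 CPM over all kept cells, with 33.4 CPM in control cluster 27 and 21.8 CPM in control cluster 9. Col4a3 stood at 0.733 and 0.506 CPM. Col7a1, the anchoring fibril of skin, stood at 2.07 and 1.47 CPM.

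**Figure D4:**
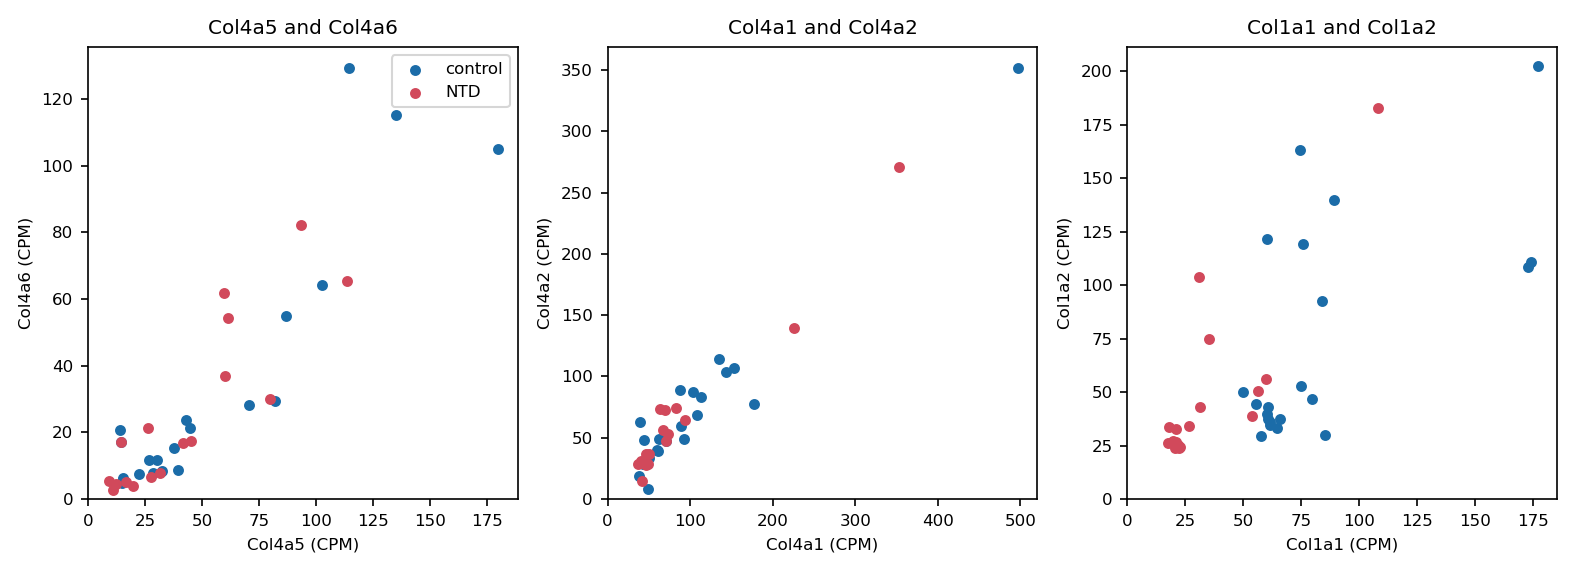
Level (CPM) of 1 chain against its partner over the tissue profiles of both libraries, for Col4a5 and Col4a6, Col4a1 and Col4a2, and Col1a1 and Col1a2. The first and second pairs have Pearson r of 0.88 each over 38 profiles, computed on log2(CPM + 1).

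Col18a1, whose end fragment is endostatin, was highest in endothelial-like cells and next in epithelium-like cells of both libraries. Endothelial-like cells held 459 CPM in control and 335 in NTD (-0.45, -0.65 to -0.26), and epithelium-like cells, which include surface ectoderm, held 298 and 193 CPM (-0.63). Crest-like cells held 167 and 122 CPM, roof plate-like cells 144 and 127 CPM, and neural progenitor-like cells 103 and 78.0 CPM. The erythroid-like level was 112 and 83.0 CPM, so the progenitor value does not stand above background. In mesenchyme-like cells it was 57.0 and 48.3 CPM, under that background.

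Col15a1, the related basement membrane collagen of vessels and muscle, was seen mainly in 1 tissue. Endothelial-like cells held 139 CPM in control (181 UMIs) and 125 CPM in NTD (121 UMIs), a log2 ratio of -0.16 with an interval of -0.50 to 0.18. The highest level in any other tissue was 11.1 CPM in control (cluster 27) and 3.93 CPM in NTD. At least 1 Col15a1 UMI was seen in 22.6% of control and 28.7% of NTD endothelial-like cells, with medians of 2422 and 2721 UMIs a cell. In erythroid-like cells, with medians of 1644 and 2126 UMIs, the share was 0.897% and 0.645%. Thinned to 1589 UMIs a cell, with 439 of 492 control and 293 of 293 NTD cells deep enough, the endothelial shares were 15.9% and 17.4%.

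As a whole, endothelial-like cells held 2231 CPM of collagen in control and 1907 in NTD (-0.23, -0.31 to -0.14). Only 2 of 18 measured members were lower by the fold and 2 higher, against 15.9% and 8.32% of 10799 genes, and with TMM scaling 2 were lower and 3 higher, against 11.7% and 11.5%. The lower ones were Col1a1, at 64.6 and 26.8 CPM, and Col4a5. The higher ones were Col26a1, at 44.6 and 86.6 CPM (0.95), and Col25a1, at 26.2 and 51.5 CPM (0.97). The erythroid-like levels of Col26a1 were 68.2 and 58.6 CPM and those of Col25a1 46.2 and 51.2 CPM. Those of Col1a1 were 74.8 and 53.7 CPM and those of Col4a5 39.6 and 14.6 CPM. Endothelial-like Col4a5 was at 32.3 and 16.5 CPM, so both lower members were near or under background. Col27a1 was at 15.4 and 22.7 CPM, and Col23a1 at 185 and 187 CPM. Endothelial markers, all 10 detected, summed to 5421 CPM in control and 3608 in NTD, and their part in the lower type IV levels was not tested.

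**Figure D5:**
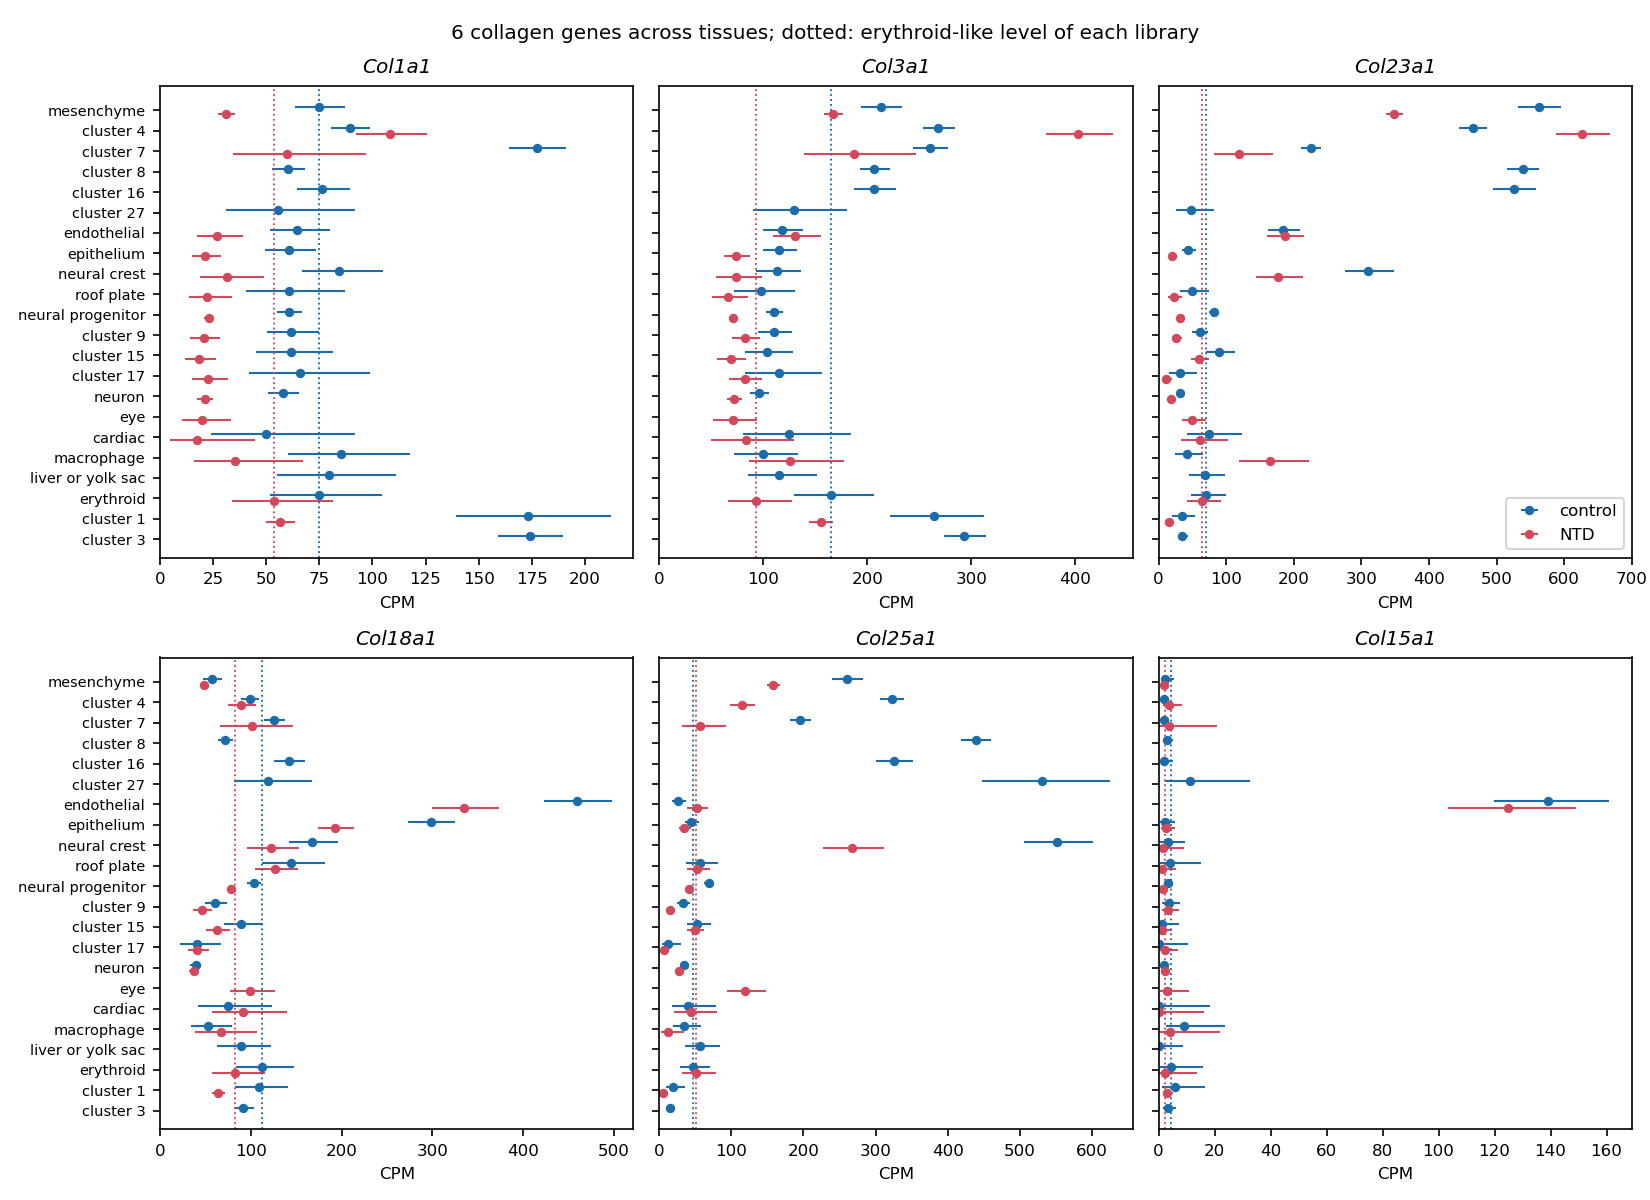
Level (CPM) of Col1a1, Col3a1, Col23a1, Col18a1, Col25a1 and Col15a1 in each tissue of the control (blue) and NTD (red) libraries, with 95% counting intervals; the dotted lines mark the erythroid-like level in each library. Col15a1 stands above its line in endothelial-like cells, at 139 and 125 CPM.

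The transmembrane collagens had the largest UMI totals of any family in mesenchyme-like cells, 864 CPM in control and 536 in NTD. Col23a1, a membrane collagen shed from the cell surface, made most of this, at 563 CPM in control (1214 UMIs) and 349 CPM in NTD (2783 UMIs), a log2 ratio of -0.69 (-0.79 to -0.59). In cluster 4 it was higher in NTD, 465 against 627 CPM (0.43, 0.32 to 0.54). Control clusters 8 and 16 held 539 and 526 CPM. The share of mesenchyme-like cells with a Col23a1 UMI was 55.4% in control and 46.4% in NTD, at medians of 2292.5 and 2645 UMIs, and 9.87% and 7.10% of erythroid-like cells. Thinned to 1589 UMIs, with 723 of 852 control and 2745 of 2745 NTD cells deep enough, it was 48.7% and 33.4%, against 12.3% and 5.16% in erythroid-like cells, of which 122 of 223 control and 155 of 155 NTD cells were deep enough.

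Col25a1, a neuronal and muscle membrane collagen needed for motor nerve entry into muscle, was at 261 CPM in control and 158 in NTD mesenchyme-like cells (-0.72). In cluster 4 the gap was wider, 323 against 114 CPM (-1.50, -1.73 to -1.27). Crest-like cells (315 control, 194 NTD) held 552 and 267 CPM (-1.05), the top level of each library, and NTD eye-like cells 119 CPM. Control clusters 27 and 8 held 531 and 439 CPM. Col13a1, found at focal contacts and neuromuscular junctions, was at 39.9 and 28.7 CPM in mesenchyme-like cells and at 37.6 and 49.0 CPM in cluster 4. Col17a1, the hemidesmosome collagen of skin, was highest in epithelium-like cells of both libraries, at 4.08 CPM in control and 8.72 in NTD, on few UMIs.

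Col26a1, a secreted short-chain collagen, accounted for nearly all of its group, and 65.2% of the NTD group's UMIs lay in mesenchyme-like cells. It was at 474 CPM in control and 323 in NTD there (-0.55, -0.66 to -0.45), and at 426 and 282 CPM in cluster 4 (-0.59). Control clusters 27, 16 and 8 held 483, 448 and 363 CPM. Epithelium-like cells held 51.9 and 17.4 CPM (-1.56), both under the erythroid-like level. Col28a1, the other member of the group, was at 1.57 and 1.32 CPM over all kept cells.

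Fibril-associated collagens sit on the surface of fibers. Col12a1, found in tendon and fascia, was at 23.6 and 15.7 CPM in mesenchyme-like cells (-0.60), and cluster 4 showed the opposite order, with 24.7 CPM in control and 53.5 in NTD (1.11, 0.68 to 1.54). Col14a1 was lower by the fold in 7 of 7 tissues measured: 42.5 and 9.66 CPM in cluster 4 (-2.09), 41.7 and 6.61 CPM in roof plate-like cells (-2.58), and 8.35 and 5.51 CPM in mesenchyme-like cells. Col16a1 was at 10.2 and 4.26 CPM in mesenchyme-like cells, with 42.1 CPM in control liver or yolk sac-like cells.
Col19a1, a collagen of early muscle, was at 702 CPM in control cluster 27 and 64.4 CPM in control cluster 16, which was led by Dmrt2 and Fgfr4; both clusters had under 50 NTD cells. Over all kept cells it was at 11.1 CPM in control and 1.30 in NTD (-3.08). Col22a1, found at muscle to tendon junctions, was at 100 CPM in the same cluster 27 and at 30.7 and 30.2 CPM in cluster 15. Col20a1 was highest in crest-like cells, at 68.3 CPM in control and 23.0 in NTD (-1.53), with at most 10.0 and 3.98 CPM in any other tissue.

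The hexagonal network genes Col8a1 and Col8a2, known from the cornea and vessel walls, differed from each other in cluster 4. Col8a1 was at 25.7 CPM (110 UMIs) in control and 2.58 CPM (4 UMIs) in NTD cluster 4 (-3.15, -5.22 to -1.92), and at 48.0 and 9.91 CPM in roof plate-like cells (-2.23). Mesenchyme-like cells held 1.85 and 3.51 CPM from 4 and 28 UMIs, which made it the 1 member higher by the fold in that class. NTD eye-like cells held 33.1 CPM. Col8a2 was at 15.6 CPM in control and 28.3 in NTD cluster 4 (0.86, 0.27 to 1.43), and at 14.8 and 13.7 CPM in mesenchyme-like cells.

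The type VI chains, which form beaded microfibrils around cells, were thinly expressed. In mesenchyme-like cells Col6a1 was at 6.95 CPM (15 UMIs) in control and 1.75 CPM (14 UMIs) in NTD (-1.98, -3.15 to -0.83). Col6a2 was at 6.95 and 4.39 CPM and Col6a3 at 12.1 and 8.90 CPM, with intervals of their ratios that include 0. The Col6a1 to Col6a2 UMI ratio over all kept cells was 0.915 (0.729 to 1.15) in control and 0.452 (0.319 to 0.633) in NTD. Col6a4 stood at 0.177 and 0.308 CPM and Col6a6 at 1.01 and 0.264 CPM, with 4.36 CPM of Col6a6 in control cluster 8.

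Neural progenitor-like cells (2446 control, 4941 NTD) held 1104 and 730 CPM of collagen (-0.60, -0.64 to -0.55), close to the erythroid-like totals. By the fold 18 of 35 members were lower and 0 higher, against 14.7% and 5.9% of 15975 genes; with TMM scaling 12 were lower and 0 higher, against 8.41% and 11.6%. Col1a1 was at 60.7 and 22.9 CPM (-1.41), Col26a1 at 47.2 and 17.8 CPM (-1.41) and Col23a1 at 82.0 and 32.0 CPM (-1.36). All 3 NTD values were under the NTD erythroid-like level. Col12a1 stood at 15.0 and 3.34 CPM, and Col3a1 at 111 and 71.0 CPM. Col4a5, at 86.8 and 60.2 CPM, stood above the erythroid-like level of 39.6 and 14.6 CPM, and Col4a6 was at 55.1 and 36.9 CPM. Least different were Col4a2, at 33.6 and 31.4 CPM, Col2a1, and Col11a1, at 79.0 and 70.5 CPM, whose ratios lay within the 0.21 that TMM scaling adds. Of the 4 clusters in this class, cluster 13 was 97.0% control cells, and without the clusters from 1 library the summed ratio was -0.43.

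The same count was made in other tissues. Crest-like cells had 11 of 18 members lower and 0 higher, against 18.8% and 9.7% of genes; Col27a1 there was at 38.4 and 14.8 CPM and Col4a1 at 135 and 69.1 CPM, while Col9a1 (22.4 and 23.0 CPM) and Col4a6 (21.3 and 21.4 CPM) were even. Col23a1 in crest-like cells was at 310 and 176 CPM and Col1a1 at 84.2 and 31.3 CPM. Roof plate-like cells had 10 of 17 lower and 0 higher, against 18.4% and 9.8%, with Col1a1 at 60.5 and 22.0 CPM, Col4a1 at 39.6 and 46.3 CPM, and Col25a1 at 56.3 and 52.9 CPM. Col3a1 and Col2a1 were both at 98.0 CPM in control roof plate-like cells, with 66.1 and 68.3 CPM in NTD.
Epithelium-like cells had 12 of 24 lower and 1 higher, against 19.0% and 8.14%. Col3a1 there was at 115 and 73.9 CPM and Col4a5 at 103 and 61.5 CPM. Col19a1 there was at 22.2 and 6.67 CPM and Col1a1 at 60.6 and 21.0 CPM, while Col4a2 was at 88.6 and 73.9 CPM and Col1a2 at 37.3 and 32.8 CPM. Erythroid-like levels were 74.8 and 53.7 CPM for Col1a1 and 165 and 92.7 for Col3a1. Both genes lay under these in roof plate-like and epithelium-like cells of both libraries, so the counts include levels read as background. Crest-like Col23a1 and epithelium-like Col4a5 stood above their erythroid-like levels, 70.4 and 63.4 CPM and 39.6 and 14.6 CPM. In cluster 7, Col3a1 was at 260 and 187 CPM and Col23a1 at 225 and 120 CPM. This cluster, with 68 NTD cells, had 17 of 30 lower and 0 higher, against 23.4% and 14.8%. Col1a2 there was at 202 and 56.1 CPM (-1.80) and Col25a1 at 196 and 56.1 CPM, while Col2a1 (36.4 and 44.9 CPM) and Col4a2 (47.0 and 56.1 CPM) were not lower. Erythroid-like cells had 3 of 13 lower and 0 higher, against 28.3% and 8.68%, a share near that of all genes.

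Macrophage-like cells (165 control, 79 NTD) were the 1 tissue of 16 whose summed collagen was higher in NTD, 725 against 974 CPM (0.43, 0.18 to 0.67). With TMM scaling this ratio was 0.53, and that of cluster 4 was also above 0, at 0.065. By the fold 5 of 10 members were higher and 1 lower, against 11.8% and 23.8% of genes. They held 41.5 and 165 CPM of Col23a1 (1.97, 1.16 to 2.87), 13 and 19 UMIs of Col1a2, 27.7 and 58.9 CPM of Col5a2, but 85.4 and 35.3 CPM of Col1a1. Their Col3a1 was at 99.2 and 126 CPM and their Col26a1 at 50.8 and 98.2 CPM. Erythroid-like levels were 70.4 and 63.4 CPM for Col23a1, 165 and 92.7 for Col3a1, and 68.2 and 58.6 for Col26a1. For these genes and for the collagen sum, the control macrophage-like level lay under the erythroid-like one and is read as background. The NTD levels lay above it. Col1a1 was the reverse, with erythroid-like levels of 74.8 and 53.7 CPM. In macrophage-like cells the 10 mesenchyme markers summed to 376 CPM in control and 436 in NTD, with Foxc2 at 0 in NTD, and their part was not tested. Neuron-like cells held 57.7 and 21.0 CPM of Col1a1, 48.9 and 29.7 CPM of Col26a1, 31.0 and 18.7 CPM of Col23a1, and 38.6 and 41.5 CPM of Col4a1. Their Col11a1 was at 59.5 and 43.8 CPM and their Col3a1 at 95.8 and 72.2 CPM. All of these but Col11a1 lay under the erythroid-like level.

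Cardiac muscle-like cells held 125 and 83.0 CPM of Col3a1, and on 8 to 21 UMIs each, Col18a1 (75.0 and 91.7 CPM), Col4a1 (60.0 and 83.0 CPM), Col4a2 (40.0 and 74.2 CPM) and Col2a1 (40.0 and 65.5 CPM) were higher in NTD, all with intervals that include 0. Control liver or yolk sac-like cells held 178 CPM of Col4a1, 115 CPM of Col3a1, 89.0 CPM of Col18a1, 79.6 CPM of Col1a1 and 77.3 CPM of Col4a2. NTD eye-like cells held 99.4 CPM of Col18a1. Erythroid-like levels were 165 and 92.7 CPM for Col3a1, 112 and 83.0 for Col18a1, and 39.6 and 36.6 for Col4a2. Cardiac Col3a1 in both libraries, control cardiac Col18a1, and liver-like Col3a1 and Col18a1 lay under these and are read as background. Control cardiac Col4a2 and liver-like Col1a1 were near the control erythroid-like levels, 39.6 and 74.8 CPM.

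Of the unnamed clusters with neural or mixed markers, cluster 1 held 633 CPM of fibrillar collagen in control and 311 in NTD. Most control cells of cluster 1 had fewer UMIs than any NTD cell, and the part of depth was not tested. Col3a1 there was at 264 and 155 CPM, Col1a2 at 108 and 50.7 CPM, Col5a1 at 36.1 and 14.7 CPM and Col23a1 at 34.2 and 15.9 CPM, against 68.5 and 53.2 CPM of Col4a2. Cluster 9, with 7 neuroblast markers, held 61.7 and 20.4 CPM of Col1a1, 45.9 and 17 CPM of Col26a1 and 21.8 and 9.09 CPM of Col4a4, but 51.2 and 54.5 CPM of Col2a1. Cluster 15 held 61.5 and 18.1 CPM of Col1a1, 32.0 and 14.1 CPM of Col9a1, and 28.2 and 12.8 CPM of Col27a1. Cluster 17 held 66.0 and 22.4 CPM of Col1a1 and 45.9 and 13.9 CPM of Col26a1, but 8.61 CPM (3 UMIs) and 28.6 CPM (37 UMIs) of Col4a2. In each of these 4 clusters Col1a1 was lower in NTD by the fold.

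Genes that build, move and bind collagen were counted in the same way in mesenchyme-like cells, where 12.5% of all genes were lower by the fold and 6.49% higher. Of 17 measured genes for chain modification and folding, 1 was lower by the fold, namely Plod1, a lysyl hydroxylase, at 20.4 and 12.4 CPM (-0.73). Of 4 export genes 1 was lower: Sec24d, a coat protein of large secretory vesicles, at 25.5 and 16.3 CPM, beside Mia3, the procollagen cargo receptor, at 75.6 and 52.3 CPM. Among 10 cleavage and crosslinking genes 1 was lower, and Bmp1, which trims procollagen, was at 60.7 and 42.7 CPM.
Of 7 receptors 2 were lower, among them Ddr2, a kinase that binds fibrillar collagen, at 185 and 122 CPM (-0.60), while the integrin chain Itgb1 was at 160 and 143 CPM. In the breakdown list 1 of 7 was lower: Timp3, a protease inhibitor, at 37.6 and 24.9 CPM. None of 10 other basement membrane genes (Nid2 at 28.3 and 20.1 CPM) and none of 4 cartilage regulators (Sox5 at 607 and 476 CPM) passed the fold. Fibril partners had 4 of 9 lower, with a median of -0.39. The lists overlap: Postn, Dcn and Lum of this list are also mesenchyme markers, and Sparc is in the folding list too. Postn, a matricellular protein that aids crosslinking, was at 27.4 and 11.5 CPM (-1.25), and Tnc at 22.3 and 11.4 CPM (-0.97). No gene of these lists was higher by the fold in that class. In cluster 4, 5 of 18 folding genes and 4 of 9 fibril partners were higher, and 1 and 2 were lower, against 8.28% of all genes higher and 15.3% lower.

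Collagen genes are long, and long genes were lower in the NTD library generally. Among mesenchyme-like cells the median log2 ratio of other genes was 0.04 under 10 kb, -0.16 from 10 to 50 kb, and -0.26 over 200 kb. In the same bins the collagens had medians of -0.50 (10 genes of 10 to 50 kb) and -0.64 (8 genes over 200 kb), and from 100 to 200 kb -0.36 (14 genes) beside -0.24 for other genes. In cluster 4 the 10 collagens of 10 to 50 kb had a median of 0.06 and the 7 over 200 kb of -0.86. The part of gene length in these differences was not tested.

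As a description across 38 tissue profiles, each 1 library's cells of 1 tissue, the collagen pairs closest in log2(CPM + 1) were Col3a1 with Col1a2 (Pearson r 0.89), Col4a6 with Col4a5 (0.88) and Col4a1 with Col4a2 (0.88). The next were Col5a2 with Col23a1 and Col26a1 with Col23a1 (0.82 each), and the median over 406 pairs of 29 genes was 0.28. Profiles share their library, its depth and its free RNA. The genes of at least 50 CPM in a profile most like Col4a1 were Nid1, a basement membrane linker (0.83), Rhoj (0.77) and Adgrf5 (0.75). Those most like Col25a1 were Gm26911 (0.83), Lrig3 (0.83) and Pdzrn3 (0.82), and those most like Col2a1 were Wasf3 (0.68), Sox9 (0.66) and Skida1 (0.66). Near Col1a1 were mt-Nd2 (0.80) and Hoxc8 (0.79), the latter a trunk position gene. For Col9a1 the closest was Tnfaip6 (0.66) and for Col6a1, which reached at most 8.23 CPM, Nubp1 (0.69).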

How the data were processed

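Cells of 1 NTD and 1 control library were measured by 10x Genomics 3′ single-cell sequencing, per the labels. The deposited matrices hold UMI counts per gene and barcode, made by the authors using Cell Ranger (7.0.1, per the file headers); STAR and mm10 are named in the submitters' processing notes. The sources used here do not state the intron setting or the annotation. Kept barcodes had at least 500 genes, 1000 UMIs and at most 10% mitochondrial counts. Scrublet's automatic threshold was unstable (at an expected rate of 5% it called 0 barcodes, and at 15% it called 12.6% of NTD and 34.6% of control barcodes), so the top 15% of doublet scores of each library were removed, a choice made after those calls were seen. Cells were clustered with scanpy 1.11.5 and leidenalg 0.10.2 (2000 variable genes without collagens, 30 components, 15 neighbours, resolution 1.0), and clusters were named by marker lists with at least 3 detected markers and a lead of 2 over the next list.

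Counts were summed per tissue and library, as CPM with exact Poisson intervals, and shares of cells with Clopper-Pearson intervals. Log2 ratios use a pseudocount of 0.5 and exact conditional binomial intervals. A gene enters a count where the tissue held 20 or more of its UMIs in all. No group has replicates, so no p-value was computed. Levels were compared under TMM scaling (edgeR 4.0.16) and the other settings given in the closing section. The ratio, interval and counting steps were tested on simulated data.

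The text names every member, those from the 5 highest levels and the 3 highest and 3 lowest ratios of a tissue (members of at least 20 CPM), and up to 3 genes of each pathway list. Members, lists and rules were chosen with earlier results of these data known. The Col4a5 to Col4a6 ratio, the choice of sequences and the division by gene length were made after values were seen. RefSeq promoters matched 34 of 43 members, and gene spans were taken from GENCODE annotation of GRCm38.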

Additional observations from a re-analysis of the deposited data

Results flagged for a closer look

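Col26a1 differed in direction between tissues. In epithelium-like cells it was at 51.9 CPM in control and 17.4 in NTD, a log2 ratio of -1.56 (-1.36 under TMM scaling). In endothelial-like cells it was at 44.6 and 86.6 CPM, a log2 ratio of 0.95 (1.05 under TMM scaling). Of these 4 levels only the endothelial NTD one lay above the erythroid-like level of Col26a1 (68.2 and 58.6 CPM), so the others are read as free RNA.

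Col3a1 also differed in direction. In erythroid-like cells, where it is read as free RNA, it was at 165 CPM in control and 92.7 in NTD, a log2 ratio of -0.82 (-0.59 under TMM scaling). In cluster 4 it was at 268 and 403 CPM, a log2 ratio of 0.59 (0.68 under TMM scaling).

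Both genes were picked because their ratios passed 1.5-fold on opposite sides of 0 with both scalings, with intervals that exclude 0. The tissues had at least 100 cells in each library, at least 100 UMIs of the gene and at least 20 CPM in either library. Members that differed in direction with a ratio short of the fold were not picked. An example is Col23a1, at 0.43 in cluster 4 and -0.69 in mesenchyme-like cells. The difference between tissues was not tested, since each ratio compares 1 library with 1 library. These limits, and the choice of only the extreme tissues, were set after the values were seen.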

How the results depend on the processing

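The summed collagen log2 ratio stayed negative over all kept cells and in mesenchyme-like, endothelial-like and neural progenitor-like cells under every alternative tried, and its size varied. With TMM scaling it was -0.56, -0.33, -0.13 and -0.39 in that order, and 5 members were lower in mesenchyme-like cells in place of 14. With likely doublets kept it was -0.22 in mesenchyme-like and -0.48 in progenitor-like cells, with 2 members higher in place of 1. A stricter cell filter (1000 genes, 2000 UMIs) gave -0.77 in progenitor-like cells and 2 higher members, and no minimum count of UMIs gave 2. A UMI floor of 1589 in both libraries gave -0.86 over all kept cells. Clustering with collagen genes gave -0.44 in progenitor-like cells and 0 higher members, and resolution 2.0 gave -0.68. Without clusters drawn almost wholly from 1 library it was -0.69 over all kept cells and -0.43 in progenitor-like cells. In a further setting the mean UMIs of an erythroid-like cell, times the number of cells in the tissue, were subtracted, with UMI totals unchanged. This removes molecules per cell and is not the CPM level used above as background. The summed ratio was then -1.37, -0.59 and -0.79 over all kept, mesenchyme-like and progenitor-like cells, with 3 higher members. That subtraction was not run in erythroid-like cells or where 3 or fewer counts were left.

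Of 159 ratios named for single members, 159 could be recomputed with TMM scaling, 149 to 150 with the UMI floor and without clusters of 1 library, 100 with each other clustering or doublets kept, 93 with the stricter filter and 81 after subtraction. Sign changes are listed only for ratios whose main interval excluded 0. Over all kept cells these were Col2a1 (0.11 with TMM scaling, 0.057 subtracted) and Col9a1 (0.69 subtracted). In progenitor-like cells it was Col11a1 (0.044 with TMM scaling, 0.19 subtracted). In mesenchyme-like cells they were Col26a1 (0.11), Col1a2 (0.12) and Col3a1 (0.13) with doublets kept, and Col3a1 (0.050) subtracted. Ratios with an interval that included 0 could also change sign and are not listed. An example is Col4a2 in progenitor-like cells, whose ratio of -0.097 lay within the 0.21 that TMM scaling adds. The cause was not tested. No paired analysis was possible because each group has 1 library, and for the same reason no replicate could be left out. Free RNA limits what can be read for members near the erythroid-like level, and members under 20 UMIs in a tissue gave no ratio.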
